A study of Mus musculus with 8 samples.

Results

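The genes described here include those of small basic proteins that pack DNA in the sperm head and of linker histones found only in male germ cells. By name, the genes are the protamine genes Prm1, Prm2 and Prm3, the transition protein genes Tnp1 and Tnp2, and the testis linker histone genes H1f6 (H1t) and H1f7 (H1fnt, H1T2). Whether each product, that of Prm3 included, is basic or packs DNA was not checked here. The 7 genes were chosen by name, and all 7 were found by symbol among 21900 protein-coding genes that RefSeq annotates on GRCm38.p6, the assembly behind mm10. Prm1, Prm2, Prm3 and Tnp2 lie next to each other and were treated as 1 cluster. H2A.Z, a variant of histone H2A, was mapped by ChIP-seq at postnatal day 14, in dissociated cells of the mouse testis, in control animals and in animals labelled Znhit1-CKO. ZNHIT1 is a subunit of the SRCAP complex, which puts H2A.Z into nucleosomes, and the series asks where H2A.Z lies when ZNHIT1 is missing. Each genotype had 2 H2A.Z immunoprecipitates and 2 inputs. For the Cre line, the strain and the deleted part of Znhit1, the sources used here give no name. The tissue also holds Sertoli and other somatic cells, and an interval list cannot check a cell type against its markers.

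Spermatids replace most of their histones, first with transition proteins and then with protamines, whose many arginines neutralise the DNA backbone. H1f6 is made earlier, in pachytene spermatocytes, while the H1f7 protein sits at one pole of the spermatid nucleus. The protamine and transition protein genes are transcribed after meiosis, under the activator CREM, and their transcripts are stored before translation. Testes of this age hold spermatocytes up to about the pachytene stage and hardly any spermatids, so the spermatid genes were mapped here at an age before most of their known expression. H2A.Z is commonly found at CpG-rich promoters, beside the start of transcription.

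The 3 deposited lists were read, and they hold only positions, with no height or score per interval. They held 48752 control peaks (median width 742 bp), 31156 Znhit1-CKO peaks (667 bp) and 24367 differential regions between the genotypes, of which 24362 were 400 bp wide. No list has a value per replicate, so nothing below has a replicate error or a test, and a difference between peak lists may fall within the spread between animals. The differential regions are the authors' own calls and carry no direction. In such a mixture of testis cells, fewer cells with H2A.Z at a site and less H2A.Z per cell cannot be told apart. An interval was counted at a gene when it lay in the gene or within 1000 bp of either end.

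The sequences below show the start sites that the results turn on, from 100 bases before the start of transcription to 50 after it, as RefSeq (GRCm38.p6) gives them in the direction of the gene. Tnp1, H1f7 and H1f6 are shown because each had a control peak over its start site, and Tnp2 and Prm1 because they had none and stand for the cluster. Capitals mark CpG dinucleotides. The windows are chr1:73015850-73015999 for Tnp1, chr15:98257258-98257407 for H1f7, chr16:10788606-10788755 for Tnp2 and chr16:10796774-10796923 for Prm1, all on the minus strand, and chr13:23695711-23695860 on the plus strand for H1f6.
Tnp1: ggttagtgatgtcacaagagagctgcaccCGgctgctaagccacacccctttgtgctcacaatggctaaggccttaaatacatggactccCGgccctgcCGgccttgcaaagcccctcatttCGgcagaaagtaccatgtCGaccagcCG
H1f7: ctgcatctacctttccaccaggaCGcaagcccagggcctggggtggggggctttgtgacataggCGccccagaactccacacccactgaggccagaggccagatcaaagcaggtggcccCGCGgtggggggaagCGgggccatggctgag
H1f6: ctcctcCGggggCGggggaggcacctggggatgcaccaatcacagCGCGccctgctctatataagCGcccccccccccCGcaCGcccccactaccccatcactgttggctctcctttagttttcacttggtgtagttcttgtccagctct
Tnp2: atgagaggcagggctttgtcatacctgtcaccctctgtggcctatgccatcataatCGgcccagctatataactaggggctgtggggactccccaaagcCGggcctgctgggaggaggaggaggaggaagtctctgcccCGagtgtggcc
Prm1: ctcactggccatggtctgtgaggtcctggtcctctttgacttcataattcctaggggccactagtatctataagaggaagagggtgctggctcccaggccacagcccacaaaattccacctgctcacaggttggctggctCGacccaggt
These 150 bases held 6 CpG in Tnp1, 5 in H1f7 and 7 in H1f6. Those of Tnp2 held 3 and those of Prm1 held 1. The whole Tnp1 and H1f6 windows lay inside a control peak, as did the 75 bases of the H1f7 window nearest the gene. In Znhit1-CKO testes the only bases of these windows inside a peak were the last 21 of the H1f6 window.

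Control H2A.Z peaks lay at 3 of the 7 genes, Tnp1, H1f6 and H1f7. A Znhit1-CKO peak lay at H1f6 alone, and a differential region at Tnp1 and H1f7. None of the 4 genes of the protamine cluster had an interval of any list. Over all protein-coding genes, 74.9% had a control peak at the gene, 67.9% a Znhit1-CKO peak and 53.6% a differential region. The 7 genes are short, with spans from 407 bp (Prm3) to 1326 bp (H1f7), and a longer gene has more room for an interval. Among the 5047 protein-coding genes of at most 5000 bp, the shares were 41.7%, 33.8% and 25.4%. Against short genes, 3 of 7 with a control peak and 2 of 7 with a differential region are near the background, and 1 of 7 with a Znhit1-CKO peak is 14.3% against 33.8%. Tnp1 and H1f7 had a control peak and no Znhit1-CKO peak, which is called lost below. That was the case for 10.0% of all protein-coding genes with a control peak and for 19.7% of the short ones. Both lost genes had a differential region, as did 68.5% of all lost genes and 67.0% of the short ones. The kept gene H1f6 had none, while 59.4% of short genes with a peak in both lists had one.

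Tnp1, which encodes transition protein 1, lies on chromosome 1 (73015074 to 73015899, 826 bp) and had 1 control peak of 769 bp (chr1:73015360-73016128). It reached from 229 bp before the start site to 539 bp after it, so it covered the promoter and the first part of the transcribed region. Of all control peaks, 48.2% were at least as wide, which puts it near the middle of the whole list. Most peaks over the start site of a protein-coding gene were wider. Of those, 4056 were from 1000 to under 1500 bp wide and 4724 at least 1500 bp. Only 1006 were from 750 to under 1000 bp, 611 from 500 to under 750 bp and 283 narrower. No Znhit1-CKO peak overlapped it, and the nearest one lay 140842 bp from the gene, at Igfbp5. Only 11.5% of protein-coding genes lay as far or farther from a Znhit1-CKO peak. Within 100 kb of Tnp1 there were 3 control peaks, covering 1942 bp, and no Znhit1-CKO peak, whereas the median protein-coding gene had 7 and 5. Having no Znhit1-CKO peak within 100 kb was shared by 13.6% of protein-coding genes. The differential region (chr1:73015436-73015835) lay wholly inside the control peak, 64 to 463 bp after the start site. The lncRNA gene 1700027A15Rik runs the other way from a start 137 bp beyond that of Tnp1, and the control peak covered its first 93 bp. The peak therefore cannot be assigned to 1 of the 2 genes by position.

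H1f7, the linker histone gene of spermatids, lies on chromosome 15 (98255982 to 98257307, 1326 bp). Its control peak was narrower than that of Tnp1, at 595 bp (chr15:98256738-98257332), and 61.7% of control peaks were at least as wide. The peak began only 25 bp before the start site and ended 569 bp after it, and so lay almost wholly on the transcribed side. No Znhit1-CKO peak overlapped it, and the nearest was at Zfp641, 38381 bp away. The differential region (chr15:98256827-98257226) again lay inside the control peak, 81 to 480 bp after the start site. In position relative to the start site, the differential regions of H1f7 and Tnp1 were thus 17 bp apart. Both were 400 bp wide and lay inside control peaks that ended 569 and 539 bp after the start site. That limited how far apart they could lie, and such offsets were not compared with those of other genes. The start site of neither gene was inside its differential region.

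Peak width bears on how often a control peak had a Znhit1-CKO counterpart anywhere in the genome. Of the 611 control peaks from 500 to under 750 bp wide that covered the start site of a protein-coding gene, as the H1f7 peak did, 42.6% had no Znhit1-CKO peak. For the 1006 such peaks from 750 to under 1000 bp, the class of the Tnp1 peak, the share was 22.8%. It was 4.88% of the 4056 peaks from 1000 to under 1500 bp, the class of the H1f6 peak. Absence in Znhit1-CKO together with a differential region, as at both genes, was seen at 27.7% and 17.1% of the first 2 classes.

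H1f6 encodes H1t, the linker histone of pachytene spermatocytes, and lies within the large histone gene cluster on chromosome 13 (23695811 to 23696545, 735 bp). It was the only 1 of the 7 genes with a peak in both genotypes. The control peak was 1030 bp wide (chr13:23695566-23696595), from 245 bp before the start site to 784 bp after it, and covered the whole gene. In Znhit1-CKO testes the peak was 746 bp wide (chr13:23695840-23696585) and lay wholly inside the control peak, covering 72.4% of it. The ends of the 2 peaks beyond the gene differed by 10 bp, and the promoter end by 274 bp. The Znhit1-CKO peak began 29 bp after the start site, which it therefore did not cover. Among 1167 short genes with a control peak over a start site and a Znhit1-CKO peak at the gene, 14.7% had no start site covered in Znhit1-CKO, and among all 10517 such genes 10.9%. No differential region overlapped H1f6, and the nearest lay 49609 bp away, so the narrowing was not among the authors' called differences. As a peak edge depends on the caller's threshold and on depth, the part of either in the narrowing was not tested.

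With the start site as the criterion, chosen after the positions had been seen, control peaks covered it in Tnp1, H1f6 and H1f7. No Znhit1-CKO peak and no differential region covered the start site of any of the 7 genes. Of the 17492 protein-coding genes with an annotated start site, a control peak covered one in 63.5%, a Znhit1-CKO peak in 54.0% and a differential region in 26.7%. Short genes were not counted apart by this criterion. At the gene, 33.8% of them had a Znhit1-CKO peak and 25.4% a differential region, against 67.9% and 53.6% of all protein-coding genes. The genes of the protamine cluster had no interval at the gene, so none of their start sites could be covered.

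The protamine cluster spans 8889 bp on chromosome 16 (10787935 to 10796823), with Tnp2, Prm3, Prm2 and Prm1 in that order and all 4 on the minus strand. No control peak, Znhit1-CKO peak or differential region lay inside it. It sat in a stretch of 47620 bp without a control peak, between a wide peak at Socs1 and one at Rmi2, and 20.8% of protein-coding genes lay in a stretch at least as long. In Znhit1-CKO testes the stretch without a peak was 48061 bp, as the bordering peaks were at the same places. The Socs1 peak was 2672 bp wide in control testes (chr16:10784251-10786922) and 2225 bp wide in Znhit1-CKO testes. Only 0.896% of control peaks were at least as wide. Socs1, a feedback inhibitor of cytokine signalling, had a differential region over its start site. The nearest control peak to each gene of the cluster was this 1. It was 1013 bp from Tnp2, 3586 bp from Prm3, 4455 bp from Prm2 and 9410 bp from Prm1, and the Znhit1-CKO peak was 423 bp farther from each. Tnp2 thus missed the 1000 bp limit by 13 bp, on the side of its 3′ end, since its start site was 1733 bp from the peak. With a limit of 2000 bp, Tnp2 would count as having a peak in both genotypes, and with 5000 bp Prm2 and Prm3 would as well, in each case through the Socs1 peak. On the Prm1 side the next peaks were those at Rmi2, 37720 bp away in control and 37738 bp in Znhit1-CKO testes.

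**Figure D1:**
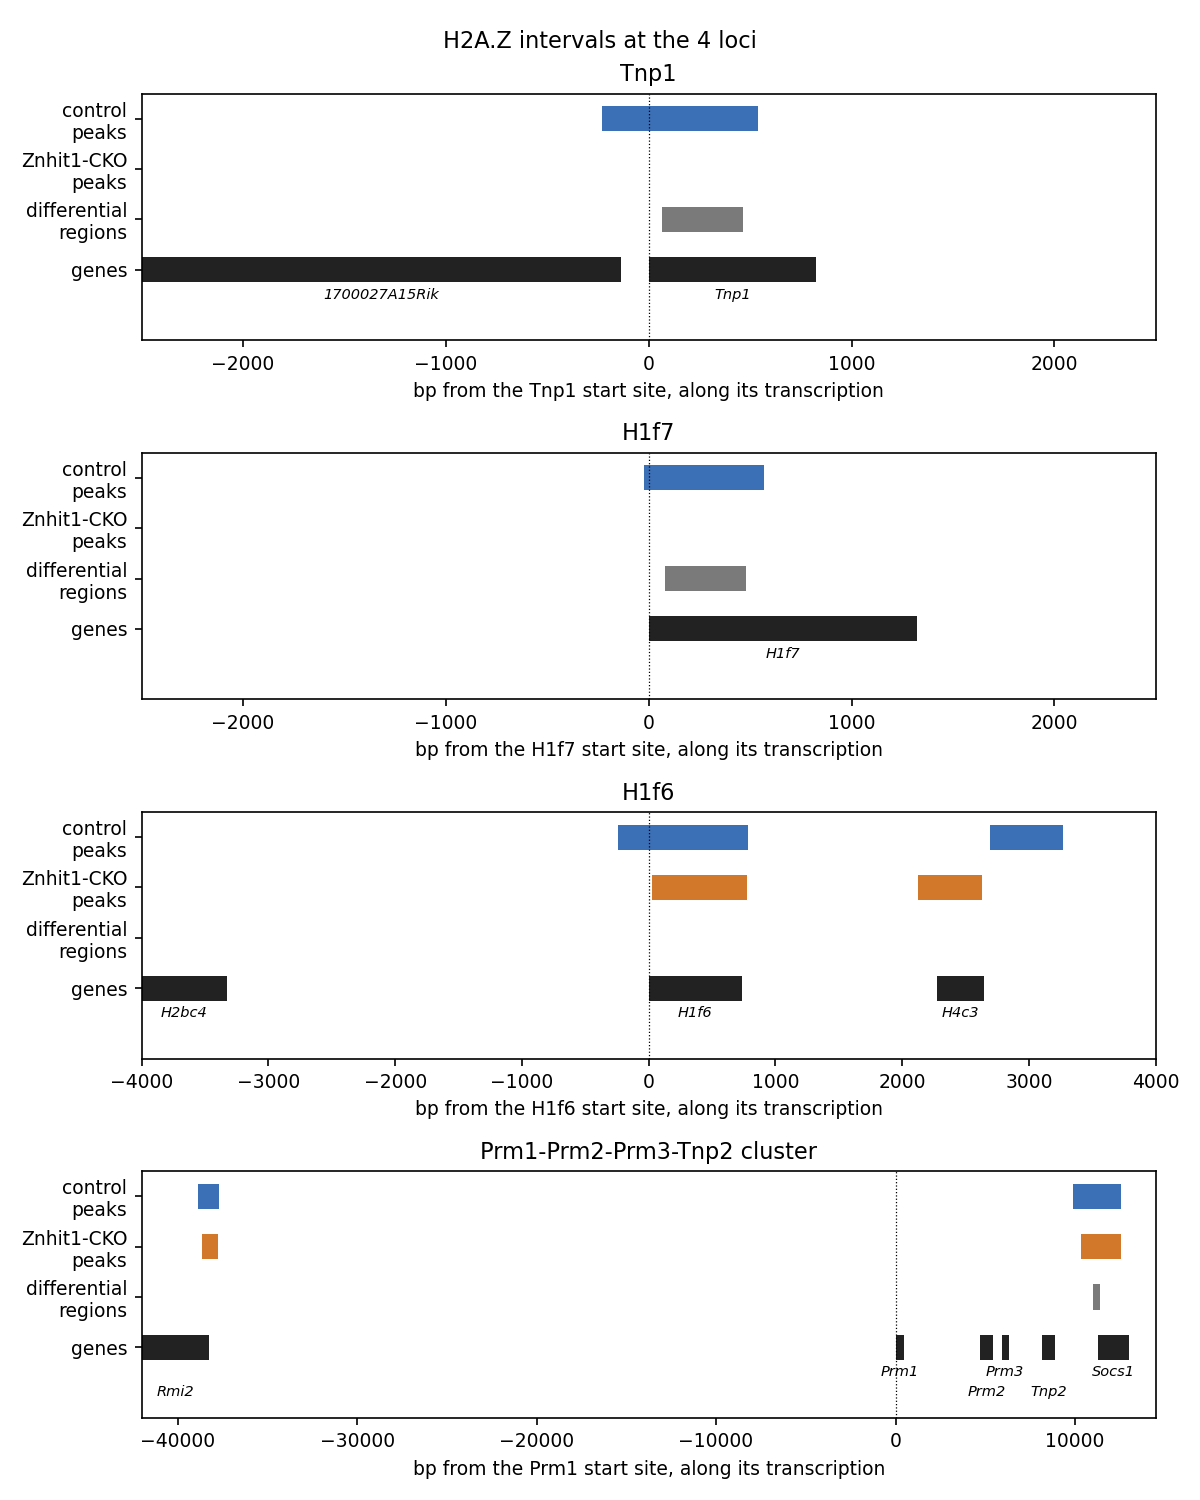
Maps of the 4 loci, with the distance in bp from the start site of the named gene along its transcription on the x axis and control peaks, Znhit1-CKO peaks, differential regions and RefSeq genes in rows (pseudogenes left out; bars that touch the frame go on beyond it). Tnp1 and H1f7 had a control peak of 769 and 595 bp and a differential region within it but no Znhit1-CKO peak, H1f6 had a peak in both lists, and the protamine cluster lay free of intervals between the peaks at Socs1 and Rmi2.

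The distances separate the 7 genes into 3 patterns. At Tnp1 and H1f7 the control peak and the differential region were at the gene and the Znhit1-CKO peak was at least 38381 bp off. At H1f6 both peaks were at the gene and the differential region was 49609 bp off. In the cluster the 3 lists lay at similar distances, because the Socs1 locus held the nearest interval of each. The differential region there was 2102 bp from Tnp2 and 10499 bp from Prm1. Distances of the Prm1 kind were common: 20.7% of protein-coding genes were at least 9410 bp from a control peak, and 27.0% at least 9833 bp from a Znhit1-CKO peak.

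**Figure D2:**
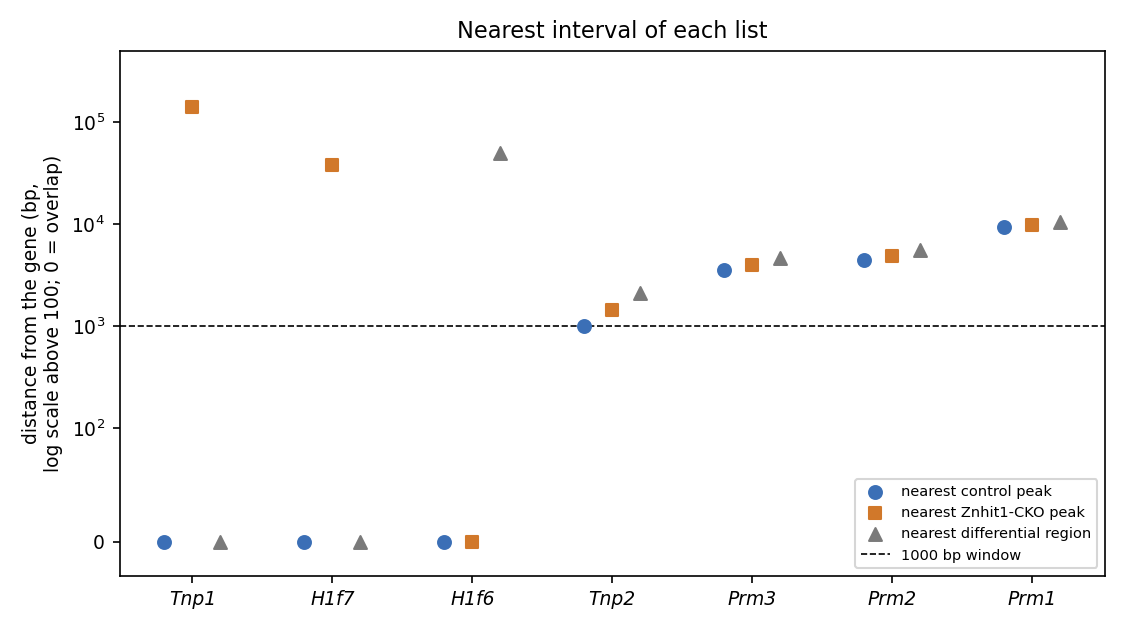
Distance in bp from each of the 7 genes (x axis) to the nearest control peak, Znhit1-CKO peak and differential region (y axis, a log scale above 100 bp, where 0 means overlap), with the 1000 bp limit dashed. The control peak of Tnp2, at 1013 bp, lies just above the line, and the nearest Znhit1-CKO peak is farthest for Tnp1, at 140842 bp.

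The promoters of the 7 genes differed in CpG content, and those with more CpG were those with peaks. In the 300-base windows, from 250 bases before the start site to 50 after it, H1f6 had 10 CpG, Tnp1 and H1f7 had 6 each, Prm3 and Tnp2 had 4 each, Prm2 had 3 and Prm1 had 1. The 3 genes with a control peak were thus the 3 with the most CpG, and the only gene with a Znhit1-CKO peak had the most of all. GC content did not separate them, at 50.7% for Tnp1 and 57.0% for Prm3. The same gradient ran through all short protein-coding genes. A control peak lay at 4.83% of those with at most 2 CpG, the class of Prm1, and at 24.5% of those with 3 to 5, the class of Prm2, Prm3 and Tnp2. It lay at 61.7% of those with 6 to 9, the class of Tnp1 and H1f7, and at 91.0% of those with 10 to 19, the class of H1f6. Of the genes with a control peak, 35.2% had lost it in the class of Tnp1 and H1f7, and 13.9% in that of H1f6. Over all 27025 genes of the promoter table, the median CpG count was 17 where a control peak lay at the gene and 2 where none did. These are shares over genes, which are not replicates, and no test was made.

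**Figure D3:**
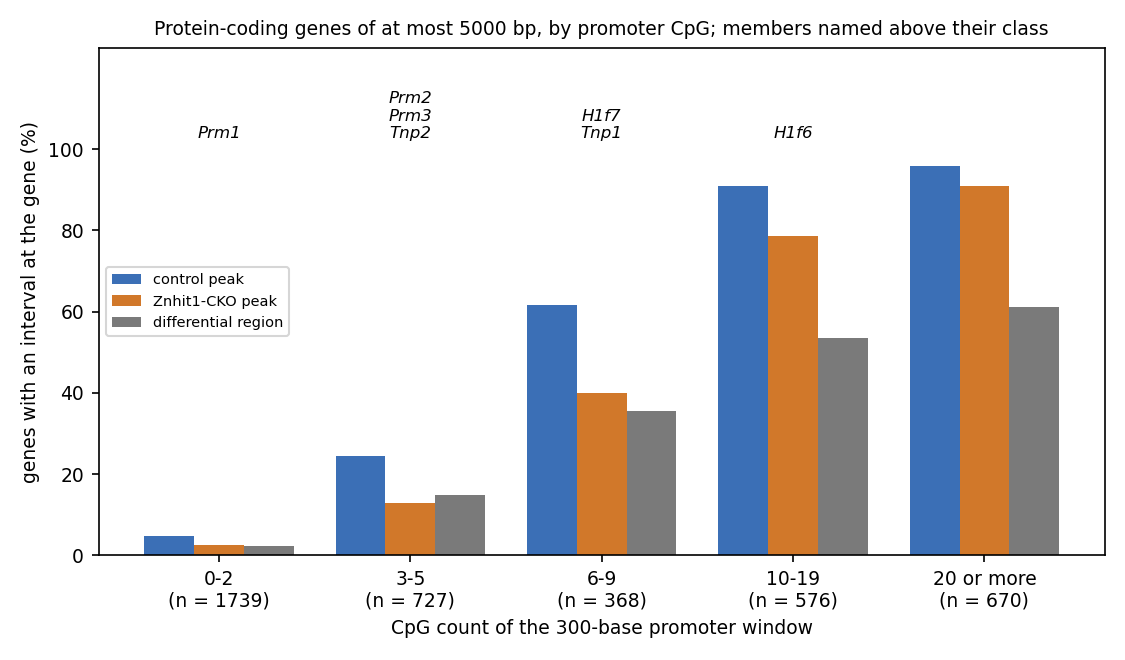
Share of protein-coding genes of at most 5000 bp with a control peak, a Znhit1-CKO peak or a differential region at the gene (y axis, percent), by the CpG count of the 300-base promoter window (x axis, the highest window where a gene has several). The 7 genes are named above their classes, and control peaks lay at 4.83% of genes in the class of Prm1 and at 91.0% in the class of H1f6.

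Short motifs were searched on both strands of the same 300 bases. The full cAMP response element TGACGTCA, the site CREM binds, was in none of the 7 windows and in 1.79% of the 32851 windows of the table. Its first letters, TGACG, which also match within the full element, were found in H1f7 only, 180 bases before the start site, and in 20.8% of all windows. TATAAA was found in Prm2, on the opposite strand and 31 bases before the start site, and in 13.6% of windows. Only exact matches were counted, and the printed windows of H1f6 and Tnp2 hold the similar run tatataa before the start site. CCAAT was in H1f6, 65 bases before the start site, and in Prm3, and in 37.4% of windows. A looser element, TGANNTCA, which includes the full one, was added after the sequences had been seen. It matched Tnp1 (TGATGTCA, 94 bases before the start site), Prm1 (TGACTTCA, 64 bases before) and Prm3 (TGAGGTCA, 60 bases before), and 14.1% of all windows. The Tnp1 match lay inside the control peak that had no Znhit1-CKO counterpart, and the Prm1 match lay in a promoter with no peak in either list.

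The nearest 2 protein-coding genes on each side, 16 in all, were looked at in the same way. Control peaks lay at 14 of them (87.5%), Znhit1-CKO peaks at 13 (81.2%) and differential regions at 7 (43.8%). Over all protein-coding genes the shares were 74.9%, 67.9% and 53.6%, so these counts are near the background. The neighbours of Tnp1 are far away, Igfbp5 at 140209 bp and Tns1 at 894333 bp, and all 4 had a peak in both lists. Igfbp5 had 5 control peaks and 2 Znhit1-CKO peaks. At Igfbp5 and Igfbp2 a start site was covered in control testes and none in Znhit1-CKO testes, while that of Tns1 was covered in both. The peak counted at Rufy4 is the same as that over the Tns1 start site. Around H1f7 lie olfactory receptor genes: Olfr286 had a control peak of 676 bp with a differential region and no Znhit1-CKO peak, while Olfr287 and Olfr285 had no interval. Zfp641, a zinc finger gene on the other side of H1f7, kept a peak of 1191 bp in control and 1064 bp in Znhit1-CKO testes over its start site. A second control peak of Zfp641, 402 bp wide and on the side of H1f7, overlapped no Znhit1-CKO peak. None of the 4 neighbours of H1f6 had a differential region. H4c3, a replication-dependent histone gene 1539 bp away, had a control peak of 575 bp ending 44 bp before its start site. Its Znhit1-CKO peak of 503 bp began 19 bp after that site, so the peaks of the 2 genotypes did not overlap there. At H2ac6 the control peak of 1795 bp covered the start site, and the Znhit1-CKO peaks of 274 and 323 bp at that gene did not.

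Of the other 9 linker histone genes, both lists had a peak at 7 (H1f0, H1f1, H1f2, H1f3, H1f4, H1f5 and H1f10), and differential regions lay only at H1f0 and H1f10, which lie on other chromosomes than the histone cluster. These 77.8% with a control peak are near the 74.9% of all protein-coding genes but above the 41.7% of short ones. Most of the 9 are short, with spans from 725 bp (H1f2) to 5312 bp (H1f8). The 7 with peaks had 10 (H1f3) or more CpG in the promoter window, and 91.0% of short genes with 10 to 19 had a control peak. The 0 of 7 lost is to be read against 10.0% of all genes with a control peak and 19.7% of the short ones. In the CpG classes of these 7, fewer short genes had lost it: 13.9% with 10 to 19 CpG and 5.44% with 20 or more. H1f1 to H1f5 and H1f6 lie on chromosome 13, and none of these 6 had a differential region. Over all protein-coding genes 53.6% had one, and over short genes 25.4%. Among short genes the share was 53.5% with 10 to 19 CpG and 61.2% with 20 or more. Whether the histone cluster differs from these shares was not tested. H1f8, the linker histone of oocytes, and Hils1 (H1f9), that of late spermatids, had no interval, as the protamine genes had none. Their promoter windows held at most 5 and 0 CpG. With the 7 genes included, the germ cell linker histones thus show a kept peak at H1f6, a lost one at H1f7 and none at Hils1.

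Of the 13 core histone genes of the testis and of replacement chromatin, 4 had a control peak (30.8%) and 3 a Znhit1-CKO peak (23.1%), against 41.7% and 33.8% of short genes. H3f3a, which is among both counts, spans 11046 bp and is not itself a short gene. The X-linked short H2A variant genes H2al1a, H2al1o, H2al3, H2ab1, H2ab2, H2ab3 and H2ap, several of which are known from spermatids, had no interval, and near-identical copies of such genes may share reads. H2al2a lost a narrow peak of 315 bp that had no differential region. The divergent genes H2ac1 and H2bc1, which encode the testis H2A and H2B of spermatocytes, share 2 control peaks of 1357 bp in all. In Znhit1-CKO testes 1 peak of 206 bp lay at H2bc1 and within 1000 bp of H2ac1, and they share a differential region. H3f3b, a gene of the replacement histone H3.3, had its nearest control peak 3556 bp away, with 24 CpG in its promoter window. The other H3.3 gene, H3f3a, had 2 control peaks of 1329 bp in all, 1 Znhit1-CKO peak of 933 bp and a differential region.

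Genes whose products remove histones or act on the protamine genes mostly had peaks in both genotypes. Among 15 histone removal factors, 14 had a control peak, 13 a Znhit1-CKO peak and 11 a differential region, against 74.9%, 67.9% and 53.6% of all protein-coding genes. Brdt, which binds acetylated histones, had 2 control peaks of 2343 bp in all that covered its start site, and 1 Znhit1-CKO peak of 1192 bp that did not, with a differential region. Chd5, a chromatin remodeller of spermatids, lost its control peaks, the widest 610 bp, and had a differential region. Chd5 spans 51549 bp, and neither of its start sites was covered by a control peak. Of control peaks from 500 to under 750 bp that covered no start site of a protein-coding gene, 69.7% had no Znhit1-CKO peak. Of 16 regulators and chaperones, 14 had a control peak (87.5%), 13 a Znhit1-CKO peak (81.2%) and 10 a differential region (62.5%). These shares, too, are to be read against 74.9%, 67.9% and 53.6% of all protein-coding genes. Crem had 2 peaks in each list and no differential region, with a widest peak of 2073 bp in control and 1945 bp in Znhit1-CKO testes. Hspa2, the chaperone of transition proteins, had a control peak of 3015 bp and 2 Znhit1-CKO peaks of 2938 bp in all, and its start site was covered in control testes only. Papolb, a testis poly(A) polymerase, was the 1 gene of that list to lose its peak, of 751 bp, and it had a differential region. In all 4 lists together, 3 of 39 genes with a control peak had lost it (7.69%), against 10.0% of all protein-coding genes. Of the genes described here, 2 of 3 had lost it. Many genes of the lists span more than 5000 bp, while these 3 are short. Among short genes with a control peak, 19.7% had lost it. The share was 35.2% in the CpG class of the 2 lost genes, and 13.9% in that of the kept gene. With 3 genes, the difference from any of these shares was not tested.

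**Figure D4:**
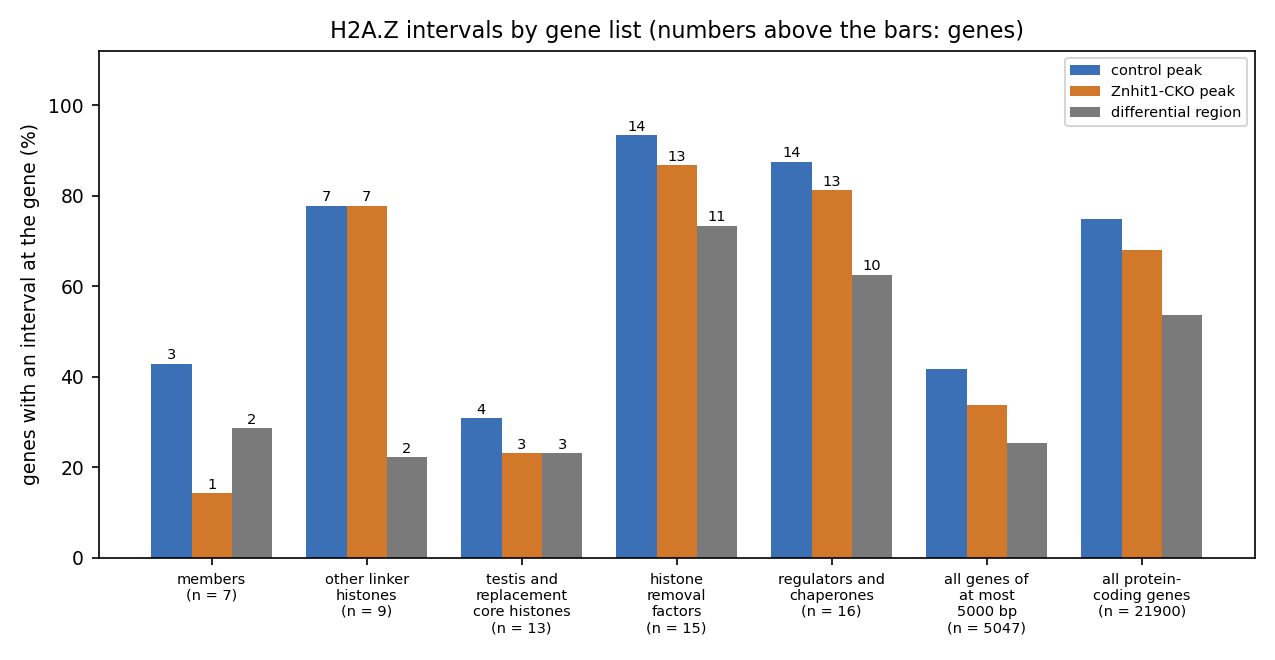
Share of genes (y axis, percent) with a control peak, a Znhit1-CKO peak or a differential region at the gene, for the 7 genes, 4 lists of sperm chromatin genes and 2 backgrounds (x axis), with the number of genes above the bars of the lists. The 7 genes had 3, 1 and 2 such intervals, below the bars of all protein-coding genes (74.9%, 67.9% and 53.6%) and, for control peaks and differential regions, close to those of short genes (41.7% and 25.4%).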

How the data were processed

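Per the submitters' processing notes, MACS2 2.2.4, Picard 2.20.7, SAMtools 1.9, BWA 0.7.17 and cutadapt 2.5 were named, with mm10 as the build. The authors deposited peak lists for control and Znhit1-CKO and 1 list of differential regions, credited to edgeR by its name. Peak threshold, pooling of replicates, the threshold and direction of differential regions, and depth per library were not given in the sources used here. Without depth, no precision per site can be stated.

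From these intervals, overlaps (at least 1 bp), distances between nearest coordinates and widths were computed with Python 3.11.15, numpy 2.4.6, pandas 2.3.3 and scipy 1.17.1, and drawn with matplotlib 3.10.9. Start positions count from 1. Overlap calls were checked against bedtools 2.31.1, with 0 of 21887 genes differing in each list. RefSeq windows were available for 17492 of 21900 protein-coding genes. Hils1 was taken for H1f9. All 53 genes of the 4 lists were matched.

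The genes and lists were chosen with earlier results of these data known. Named genes are the 7, their 2 nearest protein-coding neighbours on each side, and members of the lists. Protein sequences were not used here. Windows, minimum width, overlap and background were varied.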

Additional observations from a re-analysis of the deposited data

How the results depend on the processing

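No paired analysis was possible because each genotype has 1 list and no value per replicate, and replicates could not be left out for the same reason. The 2 lost genes (Tnp1 and H1f7) were the same in all 6 alternatives run, which could hardly have changed them. For genes this short the gene-end setting equals the main one. The nearest Znhit1-CKO peaks, 38381 bp from H1f7 and 140842 bp from Tnp1, lie beyond every window. By coverage of the start site, H1f6 too had a control peak and no Znhit1-CKO peak. The count of genes with a control peak (3) was 4 with a 2000 bp window and 6 with 5000 bp. That with a Znhit1-CKO peak (1) was 2 with 2000 bp and 4 with 5000 bp, all added through the Socs1 peak, and 0 where the start site had to be covered. That with a differential region (2) was 4 with 5000 bp and 0 at start sites. Regions are nearly all 400 bp, so a 500 bp minimum was not run on them. The share of protein-coding genes with a control peak (74.9%) was 75.6% with 2000 bp, 77.4% with 5000 bp, 72.0% for peaks of at least 500 bp, 67.6% at gene ends only, 41.7% for short genes and 49.4% for all annotated genes. For Znhit1-CKO peaks (67.9%) the values in that order were 68.7%, 70.6%, 62.3%, 60.4%, 33.8% and 40.4%. For differential regions (53.6%) they were 54.8% and 58.1% with the wider windows, 42.6% at gene ends only, 25.4% for short genes and 33.3% for all annotated genes. The start-site criterion and the looser motif were added after the data were seen. Depth is unknown, so no detection limit per site can be given.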
